A study of Rattus norvegicus with 12 samples.

Results

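In all, 6 genes that encode transcription factors of luteal steroidogenesis were followed in the corpus luteum (CL) of the pregnant rat. They were the NR5A receptors Nr5a1 and Nr5a2, the NR0B receptors Nr0b1 and Nr0b2, and the zinc finger factors Gata4 and Gata6. They were taken by gene symbol from the 14506 genes that the array's annotation names by a single symbol. Of the 6 genes, 5 were measured, each by 1 probe set. Nr5a1 had 0 probe sets under its symbol or its gene identifier, and its RNA was not analysed here.

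The CL of 12 pregnant Wistar rats were compared, with RNA of 1 animal on each Affymetrix Rat Gene 1.0 ST array and 3 arrays per group. The D12 group was untreated on day 12 of pregnancy. The other groups were collected on day 16 after 4 days of treatment. VEH rats received the vehicle, AI rats received the aromatase inhibitor anastrozole by mouth at 1 mg/kg/day, and AI+E2 rats received the inhibitor together with 10 µg estradiol-17β (E2) per day under the skin. Aromatase turns androgen into E2, so AI against VEH asks what a block of this step changes, and AI+E2 against AI asks what returning E2 changes. The study reports that luteal and serum testosterone rose with AI, so low E2 and high androgen cannot be told apart in AI against VEH. The inhibitor and E2 reached the whole animal, so effects on the CL itself cannot be told apart from those on other organs, and no group received E2 alone. Values are on the log2 scale after robust multi-array averaging (RMA), where a difference of 1 is 2-fold. In whole CL tissue, fewer cells of a type and less RNA per cell cannot be told apart.

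NR5A receptors bind as monomers to a short motif in the promoters of steroidogenic genes and activate them. NR0B receptors lack the usual DNA binding domain and act mostly by binding other nuclear receptors, NR5A receptors included, and repressing them. GATA factors bind the core letters GATA in many of the same promoters and cooperate with NR5A receptors in gonadal cells. In the ovary, Nr5a2 (liver receptor homolog 1, LRH-1) is a main NR5A receptor of luteal cells, and Nr5a1 encodes steroidogenic factor 1 (SF-1).

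The promoters of Nr0b2 and Nr5a2 are shown because, among the members with a window, only these held one of the motif forms searched, which are given below. RefSeq promoter windows (rat build GRCr8, 250 bases before the start that the promoter set uses for each gene) were given for 5 of the 6 members, all but Gata4. Capitals mark the motif. The Nr0b2 window is chr5:151062910-151063159 on the plus strand, with the NR5A motif CAAGGCCA on the gene's strand, 199 to 192 bases before the start. The Nr5a2 window is chr13:50984939-50985188 on the minus strand, with TTATCA, the reverse complement of the GATA motif TGATAA, 234 to 229 bases before the start. These positions count from the start used for the window. The range of the Nr5a2 gene, chr13:50865253-50985107, overlaps the window, so part of the window lies within the gene. The same holds for the window of Nr5a1.
Nr0b2: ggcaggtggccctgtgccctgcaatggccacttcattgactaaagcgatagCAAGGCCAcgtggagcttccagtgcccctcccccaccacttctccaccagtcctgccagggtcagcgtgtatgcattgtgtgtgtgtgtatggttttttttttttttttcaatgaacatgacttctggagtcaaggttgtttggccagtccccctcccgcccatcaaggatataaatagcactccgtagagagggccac
Nr5a2: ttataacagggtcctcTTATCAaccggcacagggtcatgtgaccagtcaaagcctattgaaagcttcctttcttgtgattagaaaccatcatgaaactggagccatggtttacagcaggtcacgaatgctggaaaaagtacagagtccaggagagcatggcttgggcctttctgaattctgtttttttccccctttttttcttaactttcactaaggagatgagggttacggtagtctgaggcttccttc
On both strands, the NR5A motif (CAAGGTCA or CAAGGCCA) was found in the window of 1 of these 5 members and in 3.17% of all 33469 promoters of that length. The GATA motif (AGATAA or TGATAA) was found in 1 of the 5 and in 16.9% of all promoters. The windows of Nr5a1, Nr0b1 and Gata6 held neither, and the palindromic estrogen response element (GGTCA, 3 bases, TGACC), found in 0.0239% of all promoters, was in 0 of the 5. The core letters GATA also occur outside the forms searched, as in AGATAG of the Nr5a1 window, and such matches were not counted. A match of letters describes the sequence and does not show binding.

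Luteal markers were bright. Star, Cyp11a1 and Scarb1 had group means of 12.54 or more on day 16, while 21 measured genes of other organs, given as a guide to dim probe sets, had means over the 12 arrays between 4.88 and 7.05. Over the 12 arrays, Nr5a2, Nr0b2, Gata4 and Gata6 had means above all 21 of these genes, and Nr0b1 had a mean above 18 of the 21. The mean of Nr0b2 in AI+E2 alone, 6.59, lay within the range of these genes. Array medians lay between 6.51 and 6.56, and 0 pairs of arrays held identical values.

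Nr0b2 was lower with AI+E2 than in every other group, whereas Gata4 was higher in both inhibitor-treated groups than in VEH. Nr5a2 was lower in VEH and AI than on day 12. For Nr0b1 and Gata6, 0 of 6 comparisons passed the test (limma, Benjamini-Hochberg over all genes, adjusted p under 0.05). At an unadjusted p under 0.05 limma passed 3 comparisons of Nr0b1 and 0 of Gata6, and the methods' t-test passed 0 of either. The comparisons share arrays and are not independent of each other.

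**Figure D1:**
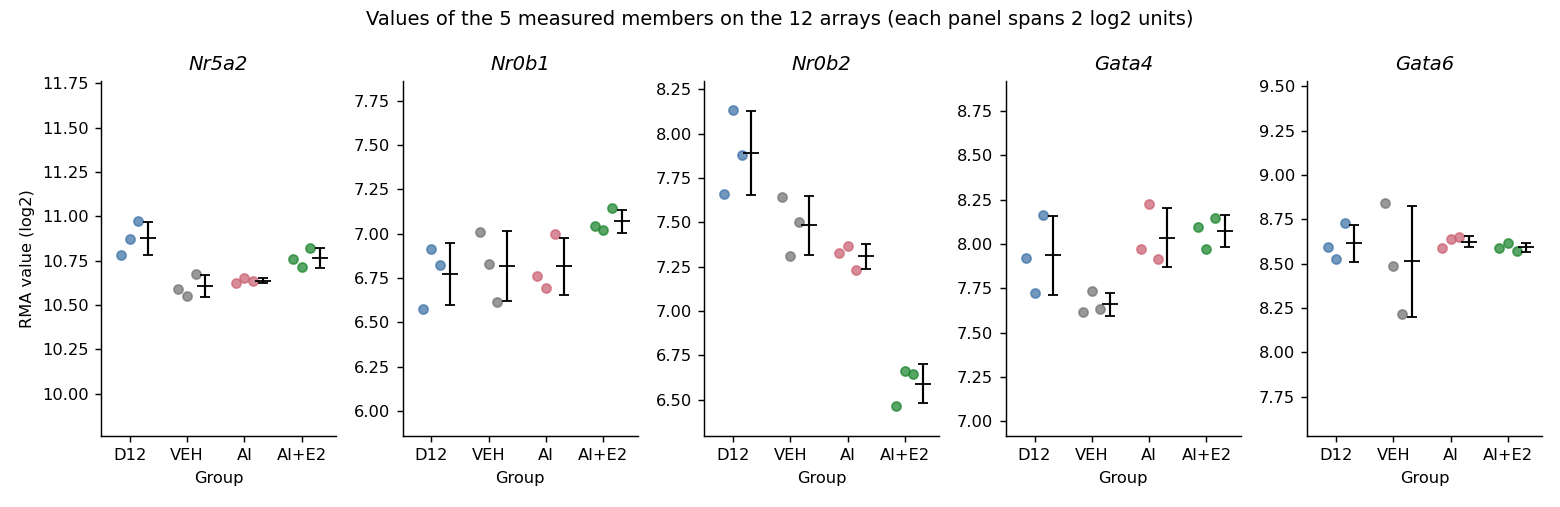
RMA values (log2) of the 5 measured members on the 12 arrays, by group, with the group mean and SD in black beside the 3 points. Each panel spans 2 log2 units. The AI+E2 arrays of Nr0b2 lie between 6.46 and 6.66, below all other arrays, and the VEH arrays of Gata6 spread from 8.22 to 8.84.

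Nr0b2 encodes small heterodimer partner (SHP), known in the liver as a bile acid induced repressor of NR5A and other receptors. The gene lies at chr5:151063160-151066475 (GRCr8). Its values on the 3 D12 arrays were 7.66, 8.13 and 7.88. They were 7.64, 7.31 and 7.50 in VEH, 7.33, 7.36 and 7.23 in AI, and 6.46, 6.66 and 6.65 in AI+E2. Every AI+E2 array was below every array of the other groups, while the VEH and AI arrays overlapped. Group means were 7.89 ± 0.23 in D12, 7.48 ± 0.17 in VEH, 7.31 ± 0.069 in AI and 6.59 ± 0.11 in AI+E2 (SD, n = 3).

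In AI+E2 against AI, Nr0b2 fell by 0.72 on the log2 scale (SE 0.11, 1.64-fold lower, limma adjusted p = 2.78e-04). It was the only member called of 5 measured, where 12.8% of all genes were called. Its difference was larger in size than that of all but 1.74% of the 14506 genes. Nr0b2 also stands in the study's ranking of E2 responsive genes by their change on these arrays, so its place there is not independent evidence. In AI+E2 against VEH, Nr0b2 fell by 0.89 (1.86-fold lower, adjusted p = 3.91e-05), and only 0.972% of genes differed by more. With Gata4, 2 of 5 members were called there, against 13.0% of all genes. The inhibitor alone gave no call for Nr0b2. The difference AI minus VEH was -0.18, with a 95% interval from -0.40 to 0.053 and an adjusted p of 0.319, so a fall of up to 0.40 lies within the interval.

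Against day 12, Nr0b2 was lower in all 3 groups of day 16. It fell by 0.41 in VEH (1.33-fold lower, adjusted p = 0.0242), by 0.58 in AI (1.498-fold lower, adjusted p = 0.0029) and by 1.30 in AI+E2 (2.46-fold lower, limma adjusted p = 1.35e-06). The last of these was exceeded in size by 0.200% of genes. Nr0b2 and Nr5a2 made 2 of 5 members called in VEH against D12, where 10.1% of genes were called, and 2 of 5 in AI against D12, where 7.57% were called. Nr0b2 was the only member called in AI+E2 against D12, where 12.1% of genes were called. In the order of the group means, the differences between D12 and VEH and between AI and AI+E2 were called, whereas that between the neighbours VEH and AI was not.

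The call in VEH against D12 was lost when any of 4 arrays was left out. The difference was -0.29 (adjusted p = 0.0882) without D12 replicate 2 and -0.41 (adjusted p = 0.0511) without D12 replicate 3. It was -0.32 (adjusted p = 0.106) without VEH replicate 2 and -0.42 (adjusted p = 0.0526) without VEH replicate 3. This call was also lost with all probe sets in the adjustment (limma adjusted p = 0.0578) and with only the 2 groups compared (0.0777). The methods' t-test called neither VEH against D12 (adjusted p = 0.362) nor AI against D12 (adjusted p = 0.238). All 3 calls of AI+E2 were kept under each of the 23 alternative settings. The AI+E2 against AI difference ranged over them from -0.84 to -0.65, and that against D12 from -1.41 to -1.18.

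Markers of the cell types of the CL were read beside the difference between AI+E2 and AI. Of 7 luteal markers, 1 was higher in AI+E2 (Prlr) and 0 were lower, and the mean of the list was 11.78 to 11.82 on AI arrays and 11.84 to 11.89 on AI+E2 arrays. Of 10 endothelial markers, 1 was higher (Egfl7), with list means of 8.65 to 8.90 in AI and 8.80 to 8.88 in AI+E2. Of 8 lymphocyte markers, 3 were higher (Cd3g, Cd4 and Il7r), with list means of 6.27 to 6.46 in AI and 6.52 to 6.54 in AI+E2, and of 3 red blood cell markers Hbb was lower, with list means of 7.70 to 7.80 and 7.25 to 7.33. Of 10 macrophage markers, 1 was higher (C1qa), with list means of 8.10 to 8.25 in AI and 8.21 to 8.26 in AI+E2. Of 5 theca and interstitial markers, Cyp17a1 and Insl3 were lower and Aldh1a1 was higher, and the list means were 7.15 to 7.27 in AI and 6.38 to 6.42 in AI+E2. Cyp17a1, whose large difference is given with the target genes below, weighs heavily in these means. The median difference of this list was -0.10. Of 8 fibroblast markers 1 was higher and 1 lower, of 7 follicle markers 1 was higher, and 0 markers of smooth muscle, fat or epithelium were called. In AI+E2 against VEH, 7 of 10 endothelial, 2 of 10 smooth muscle and 2 of 3 red blood cell markers were lower. Higher were 3 of 7 luteal, 4 of 10 macrophage and 2 of 8 lymphocyte markers. Of 8 fibroblast markers, 3 were higher and 4 lower there. In AI+E2 against D12, 5 of 10 macrophage, 3 of 8 lymphocyte and 2 of 8 fibroblast markers were higher. There, 0 of 10 endothelial markers were called. The part of these cells in the falls of Nr0b2 with AI+E2 was not tested.

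Among genes whose group means differed by at least 0.5, the 3 whose values on the 12 arrays were most like those of Nr0b2 were Kcnt1 (Pearson r = 0.96), Net1 (r = 0.96) and Ctnnd1 (r = 0.95), chosen for this from 1311 genes. Each was lowest in AI+E2, with group means of 8.46, 8.05 and 9.67. The 12 points share 4 group means, and r is given as a description.

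Nr0b1 encodes DAX-1, a repressor of SF-1 that is needed for the development of the adrenal gland, and the gene lies at chrX:54707658-54711786 (GRCr8). Its values were 6.58, 6.91 and 6.82 in D12, 7.01, 6.83 and 6.62 in VEH, 6.76, 6.69 and 6.997 in AI, and 7.04, 7.02 and 7.14 in AI+E2. The AI+E2 arrays lay just above all others, and the other 3 groups overlapped. Group means were 6.77 ± 0.18 in D12, 6.82 ± 0.20 in VEH, 6.82 ± 0.16 in AI and 7.07 ± 0.066 in AI+E2 (SD, n = 3).

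None of the 6 comparisons of Nr0b1 was called by limma. AI+E2 minus AI was 0.25 (95% interval 0.025 to 0.48, adjusted p = 0.153), AI+E2 minus VEH was 0.25 (0.022 to 0.48, adjusted p = 0.163) and AI+E2 minus D12 was 0.30 (0.070 to 0.53, adjusted p = 0.0870). These intervals are not adjusted for the number of genes. The other 3 differences were between -0.0028 and 0.048, and AI minus VEH had an interval from -0.23 to 0.23. The AI+E2 differences were called when arrays were weighted by their estimated quality (0.26, 0.23 and 0.32, adjusted p = 0.0023, 0.0255 and 0.0087), where a single AI+E2 array had a weight of 11.4 and the others between 0.49 and 3.02. Without D12 replicate 2, AI+E2 minus D12 was 0.37 (adjusted p = 0.0482).

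Nr5a2 was the brightest of the members, with a mean over the 12 arrays above that of 98.3% of genes, although probe sets of different genes are not on a common scale. The gene lies at chr13:50865253-50985107 (GRCr8). Its values were 10.78, 10.87 and 10.97 in D12 and 10.59, 10.55 and 10.67 in VEH. They were 10.63, 10.65 and 10.64 in AI, and 10.76, 10.71 and 10.82 in AI+E2. All D12 arrays were above all VEH and AI arrays, and D12 overlapped AI+E2. The means were 10.88 ± 0.094 in D12, 10.60 ± 0.062 in VEH, 10.64 ± 0.012 in AI and 10.76 ± 0.055 in AI+E2 (SD, n = 3).

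Nr5a2 fell by 0.27 on the log2 scale from D12 to VEH (SE 0.061, 1.21-fold lower, limma adjusted p = 0.0102) and by 0.24 from D12 to AI (1.18-fold lower, adjusted p = 0.0267). AI+E2 minus D12 was -0.11 (95% interval -0.24 to 0.020, adjusted p = 0.281). On day 16, no difference was called. AI minus VEH was 0.033 (interval -0.098 to 0.16, adjusted p = 0.784). AI+E2 lay above AI by 0.13 (interval -0.0043 to 0.26, adjusted p = 0.224) and above VEH by 0.16 (interval 0.028 to 0.29, adjusted p = 0.114), with no overlap of the arrays in either case. Array weights, which also called more genes of the other lists in these comparisons, called both of these, at 0.13 (adjusted p = 0.0126) and 0.17 (adjusted p = 0.0114). A repeated quantile normalization called AI+E2 minus D12, at -0.21 (adjusted p = 0.0214). In the order D12, AI+E2, AI and VEH, no difference between neighbours was called, and the calls were between D12 and the 2 lowest groups.

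The D12 to AI call of Nr5a2 was lost without D12 replicate 2 (-0.24, adjusted p = 0.0534), D12 replicate 3 (-0.19, adjusted p = 0.113), AI replicate 1 (-0.23, adjusted p = 0.0985), AI replicate 2 (-0.24, adjusted p = 0.0566) or AI replicate 3 (-0.24, adjusted p = 0.0703). The D12 to VEH call was kept whichever array was left out. With only the 2 groups compared, both calls were lost (limma adjusted p = 0.0543 for VEH and 0.0734 for AI). They were also lost with the methods' t-test (adjusted p = 0.207 and 0.225). Between D12 and VEH the tissue differed in other markers, since 10 of 10 endothelial markers and 6 of 10 smooth muscle and pericyte markers were higher in VEH. The endothelial list mean was 8.74 to 8.93 on D12 arrays and 9.24 to 9.27 on VEH arrays, that of smooth muscle 8.53 to 8.57 and 8.81 to 9.15, and that of luteal cells 11.65 to 11.71 and 11.56 to 11.59, with 1 of 7 luteal markers lower. Of 8 fibroblast markers 4 were higher and 1 lower, 1 of 10 macrophage markers was higher, and 2 of 7 follicle, 1 of 5 theca and interstitial and 1 of 3 red blood cell markers were lower. Their part in the falls of Nr5a2 and Nr0b2 in VEH was not tested. In AI against D12, 3 of 7 luteal markers were higher and 1 lower, 2 of 5 theca and interstitial, 2 of 10 macrophage, 1 of 10 smooth muscle and 1 of 8 fibroblast markers were higher, and 0 of 10 endothelial markers were called. Their part in the falls in AI was not tested either. The genes most like Nr5a2 over the 12 arrays were Ttl (r = 0.86), Rph3al (r = 0.82) and Slc27a6 (r = 0.82), from 1312 genes, and each was lowest in VEH.

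Gata4 encodes a GATA factor of granulosa and theca cells that also acts in the heart, and the gene lies at chr15:41635572-41707252 (GRCr8). Its values were 7.92, 7.72 and 8.17 in D12 and 7.61, 7.74 and 7.63 in VEH. They were 7.97, 8.22 and 7.91 in AI, and 8.09, 7.97 and 8.15 in AI+E2. The 3 VEH arrays were below all AI and AI+E2 arrays, whereas D12 overlapped each of the other groups. Group means were 7.94 ± 0.22 in D12, 7.66 ± 0.065 in VEH, 8.04 ± 0.17 in AI and 8.07 ± 0.091 in AI+E2 (SD, n = 3).

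Gata4 was the only 1 of 5 members called in AI against VEH, where 16.9% of all genes were called. It rose by 0.38 on the log2 scale (SE 0.10, 1.30-fold, limma adjusted p = 0.0187), and 8.80% of genes differed by more. In AI+E2 it was 0.41 above VEH (1.33-fold, adjusted p = 0.0136). AI+E2 minus AI was 0.036 (95% interval -0.18 to 0.25, adjusted p = 0.871). VEH minus D12 was -0.28 (interval -0.49 to -0.058, adjusted p = 0.111), and AI and AI+E2 differed from D12 by 0.099 and 0.13 without a call. No difference between neighbours in the order AI+E2, AI, D12 and VEH was called.

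The Gata4 calls were near the threshold. AI against VEH was lost without VEH replicate 1 (0.35, adjusted p = 0.0676), VEH replicate 3 (0.36, adjusted p = 0.0555) or AI replicate 2 (0.28, adjusted p = 0.0865). AI+E2 against VEH was lost without VEH replicate 1 (0.39, adjusted p = 0.0521), AI+E2 replicate 1 (0.40, adjusted p = 0.0544) or AI+E2 replicate 3 (0.37, adjusted p = 0.0617). The methods' t-test called neither AI against VEH (adjusted p = 0.149) nor AI+E2 against VEH (adjusted p = 0.0627). Without D12 replicate 2, VEH was below D12 by a called difference of -0.38 (adjusted p = 0.0200), as it was after a repeated quantile normalization (-0.31, adjusted p = 0.0300).

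In AI against VEH, 9 of 10 endothelial markers were lower, led by Eng (-0.50), Tek (-0.62) and Tie1 (-0.52), and the list mean was 9.24 to 9.27 on VEH arrays and 8.65 to 8.90 on AI arrays. Of 10 smooth muscle and pericyte markers, Pdgfrb (-0.33) and Cnn1 (-0.35) were lower. Of 7 luteal markers, 4 were higher and Prlr was lower, with list means of 11.56 to 11.59 in VEH and 11.78 to 11.82 in AI. Of 5 theca and interstitial markers, Cyp17a1 and Insl3 (0.75) were higher and 3 were not called, with list means of 6.12 to 6.19 in VEH and 7.15 to 7.27 in AI. Cyp17a1, whose large difference is given with the target genes below, weighs heavily in these means. The median difference of this list was 0.14. Of 7 markers of follicles, 1 was higher (Amh), with list means of 6.08 to 6.10 in VEH and 6.19 to 6.27 in AI. Of 10 macrophage markers, 4 were higher, with list means of 7.92 to 8.01 in VEH and 8.10 to 8.25 in AI. Of 8 fibroblast markers 2 were higher and 1 lower, and 0 markers of lymphocytes, red blood cells, fat or epithelium were called. The list means of AI+E2 were 8.80 to 8.88 for endothelium, 11.84 to 11.89 for luteal cells and 6.38 to 6.42 for theca and interstitial cells. The part of these cells in the rise of Gata4 was not tested. The genes most like Gata4 over the 12 arrays were Calb2 (r = 0.92), Pak3 (r = 0.91) and Slc26a2 (r = 0.90), from 1312 genes, each lowest in VEH.

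Gata6 encodes the other GATA factor of luteal cells and lies at chr18:2460909-2492322 (GRCr8). Its values were 8.59, 8.52 and 8.73 in D12 and 8.84, 8.49 and 8.22 in VEH. They were 8.59, 8.64 and 8.65 in AI, and 8.59, 8.62 and 8.57 in AI+E2. The VEH arrays held both the highest and the lowest value of all 12, with a group SD of 0.31 against 0.032 in AI, 0.024 in AI+E2 and 0.10 in D12. Group means were 8.62 in D12, 8.52 in VEH, 8.63 in AI and 8.59 in AI+E2 (n = 3).

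No comparison of Gata6 was called, and the 6 differences were between -0.10 and 0.11. AI minus VEH was 0.11 (95% interval -0.13 to 0.35, adjusted p = 0.576), and AI+E2 minus AI was -0.033 (interval -0.27 to 0.20, adjusted p = 0.892). The first of these depended on single VEH arrays. Without VEH replicate 1 the difference was 0.27 and was called (adjusted p = 0.0401), and without VEH replicate 3 it was -0.039 (adjusted p = 0.840). On VEH replicates 1, 2 and 3, in which Gata6 was 8.84, 8.49 and 8.22, the list means were 8.11, 7.84 and 7.70 for red blood cells, 8.01, 7.95 and 7.92 for macrophages, and 8.90, 9.15 and 8.81 for smooth muscle. They were 11.56, 11.59 and 11.58 for luteal cells, and 9.27, 9.27 and 9.24 for endothelium. Those of fibroblasts were 9.06, 9.23 and 8.93, and those of lymphocytes 6.37, 6.29 and 6.36. Of these lists, those of red blood cells and macrophages fell in the order of Gata6, and the others did not. The part of these cells in the spread of Gata6 was not tested.

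**Figure D2:**
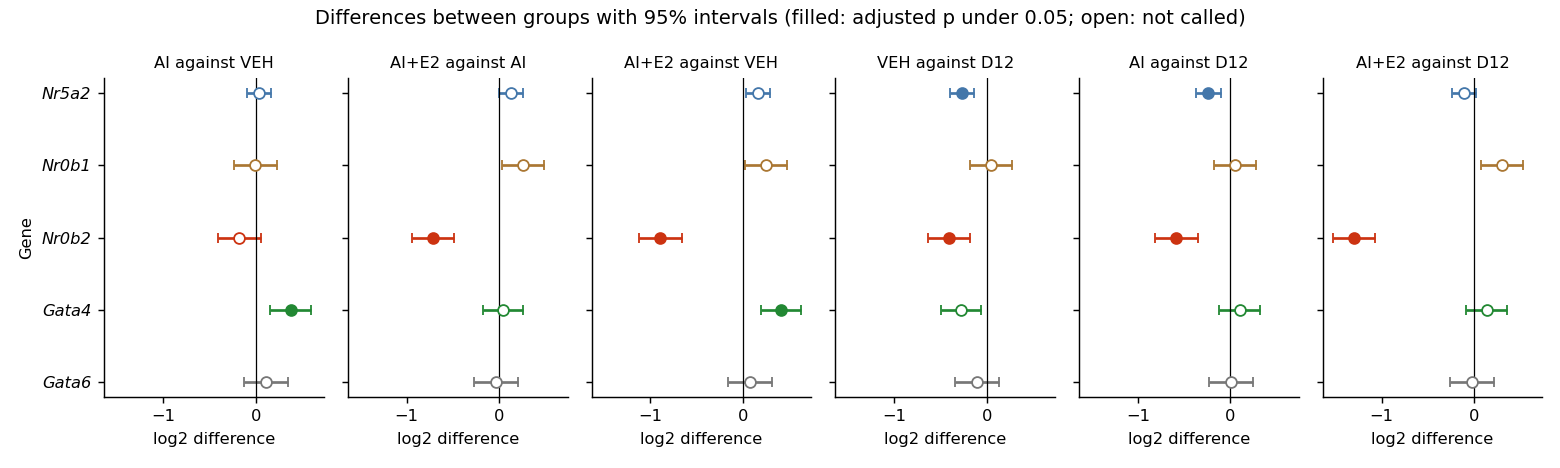
Log2 differences (x axis) of the 5 measured members (rows) in the 6 comparisons (panels), with 95% intervals from limma. Filled points passed an adjusted p of 0.05, with Nr0b2 filled in 5 panels and Gata4 and Nr5a2 in 2 each.

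Over the 12 arrays, the members did not move as a group. Pearson r between pairs of members lay between -0.53, for Nr0b1 with Nr0b2, and 0.42, for Nr5a2 with Gata4, and r was 0.31 for Gata4 with Gata6 and 0.20 for Nr5a2 with Nr0b2. The 12 points share 4 group means, so these values are descriptions.

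**Figure D3:**
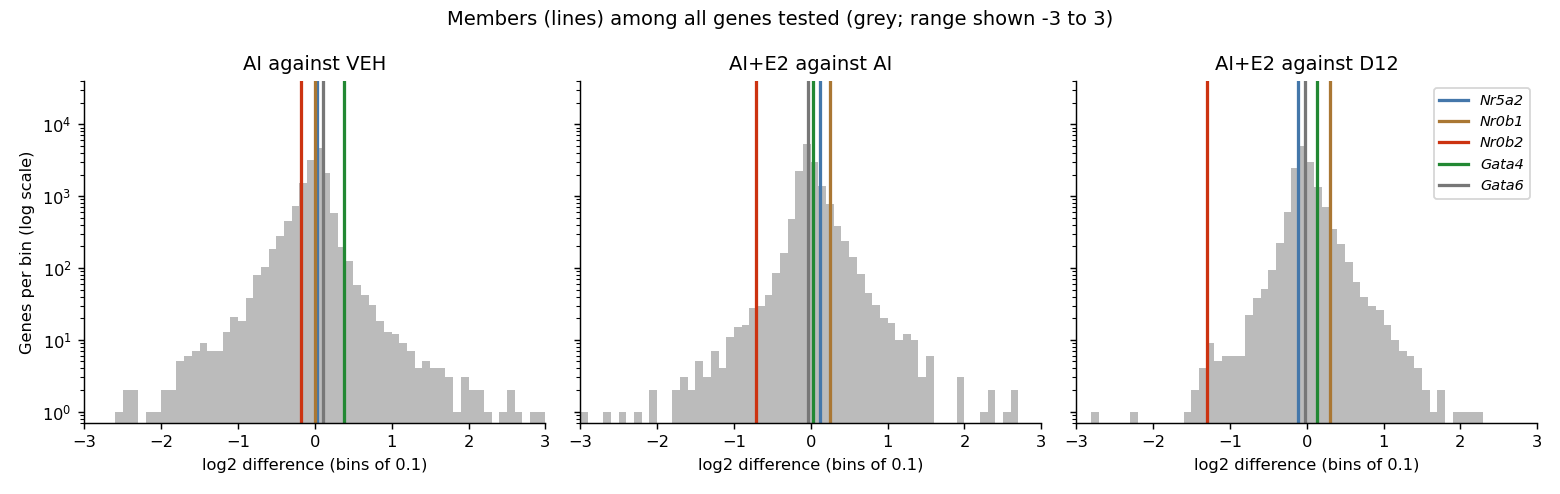
Log2 differences of all 14506 genes (grey, genes per bin of 0.1 on a log axis, range shown -3 to 3) with the 5 members as coloured lines, in AI against VEH, AI+E2 against AI and AI+E2 against D12. Nr0b2 lies at -0.72 and -1.30 in the last 2 panels, in the left tail, and Gata4 lies at 0.38 in the first.

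A list of 16 textbook target genes of NR5A and GATA factors in steroidogenic cells, 14 of them measured, was read beside the members. Cyp19a1, which encodes aromatase, and Hsd3b1 had no probe set that the annotation names by their symbol alone. The study itself lists a probe set for Cyp19a1. In AI against VEH, 7 of the 14 were higher and 2 lower, or 64.3% against 16.9% of all genes, with a median log2 difference of 0.32 against 0.013 for all genes. With the methods' t-test after Benjamini-Hochberg, 2 of the 14 were called, and 663 of the 14506 genes. Cyp17a1, which encodes the enzyme of androgen synthesis, rose by 4.48 (limma adjusted p = 3.21e-13), and Fdx1, the electron donor of mitochondrial steroid enzymes, rose by 1.18 (adjusted p = 1.66e-08). Smaller rises were those of the cholesterol carrier Star (0.21), the side chain cleavage enzyme Cyp11a1 (0.21), the lipoprotein receptor Scarb1 (0.30), Hsd3b2 (0.36) and Amh (0.34), with adjusted p between 0.0018 and 0.0290. The receptors Mc2r (-0.34) and Prlr (-0.31) were lower. Star, Cyp11a1, Scarb1, Fdx1 and Prlr are also in the list of luteal markers. Cyp17a1 is also a theca marker and Amh a follicle marker, so these lists are not separate readings. Inha (0.56, interval -0.25 to 1.37) and Inhba (0.50, interval -0.71 to 1.70) had wide spreads and were not called.

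In AI+E2 against AI, 2 targets were higher and 1 lower of 14, or 21.4% against 12.8% of all genes, with a median of -0.13 against -0.022 for all genes. Cyp17a1 fell by 3.41 (adjusted p = 1.75e-11), while Akr1b7, an aldo-keto reductase, rose by 0.64 (adjusted p = 5.37e-05) and Prlr, the prolactin receptor, rose by 0.59 (adjusted p = 1.66e-05). Fdx1 differed by 0.058 (adjusted p = 0.672) and, like Gata4, was called above VEH in both AI and AI+E2. Relative to VEH, 6 targets were higher and 1 lower in AI+E2. Against D12, 1 target was higher and 3 lower in VEH, 4 and 1 in AI (3 in all without AI replicate 2), and 3 and 2 in AI+E2. Of the 12 targets with a promoter window, 1 held the NR5A motif (Amh) and 3 held the GATA motif (Hsd3b1, Hsd3b2 and Inha).

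**Figure D4:**
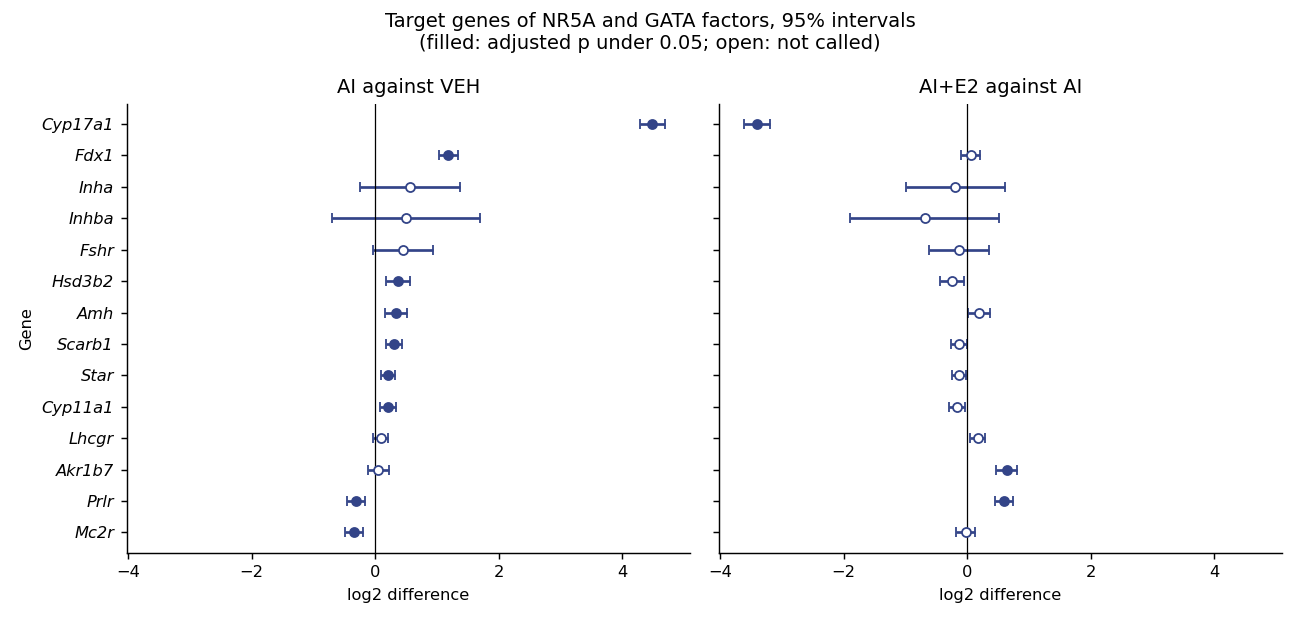
Log2 differences with 95% intervals (limma) of the 14 measured target genes in AI against VEH (left) and AI+E2 against AI (right), ordered by the left panel. Filled points passed an adjusted p of 0.05. Cyp17a1 is at 4.48 and -3.41, and most others lie within 1 of zero.

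The proteins known to bind or assist the members were read from a list of 30 genes. Of 26 measured cofactors and partner factors, 1 was higher and 2 lower in AI against VEH, or 11.5% against 16.9% of all genes. The coactivator Ncoa2 rose by 0.22 (adjusted p = 0.0394). Another coactivator, Ncoa3, fell by 0.24 (adjusted p = 0.0452), and the deacetylase Hdac1 fell by 0.55 (adjusted p = 0.0067). This count of 3 was 1 without VEH replicate 3, AI replicate 1, AI replicate 3 or AI+E2 replicate 1. With AI+E2 against AI, 2 were higher and 2 lower, or 15.4% against 12.8% of all genes. The coactivator Cited2 rose by 1.22 (adjusted p = 1.28e-07) and Nr4a1, an orphan receptor that binds a motif close to that of NR5A receptors, rose by 1.39 (adjusted p = 5.58e-06). Cebpa fell by 0.43 (adjusted p = 0.0080) and Ppargc1a fell by 0.25 (adjusted p = 0.0067). Against VEH, AI+E2 had 3 higher and 1 lower, or 15.4% against 13.0% of all genes, a share near the background.

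Of 36 other nuclear receptor genes measured, 2 were higher and 4 lower in AI against VEH, or 16.7% against 16.9% of all genes, a share near the background. The retinoic acid receptor Rara fell by 0.70, the fatty acid receptor Ppara by 0.67 and the glucocorticoid receptor Nr3c1 by 0.50, while the clock repressor Nr1d1 rose by 0.71 (limma adjusted p between 3.61e-06 and 0.0018). The comparison of AI+E2 with AI had 3 higher and 3 lower, or 16.7% against 12.8% of all genes, and 3 in all without AI replicate 1 or AI+E2 replicate 1. Nr1d1 fell by 1.47 (adjusted p = 1.28e-07) and its relative Nr1d2 by 0.50 (adjusted p = 0.0065), while Nr4a1, which is in both lists, and Ppara (0.44, adjusted p = 0.0205) rose. Of the 5 other GATA genes, Gata2 was lower in AI than in VEH (-0.22, adjusted p = 0.0368). That call was lost without VEH replicate 1, VEH replicate 2, AI+E2 replicate 1 or any of the AI arrays.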

How the data were processed

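Luteal RNA of 12 rats was hybridized to 12 Affymetrix Rat Gene 1.0 ST arrays. Background correction, quantile normalization and summary by RMA (R 2.12.2 in the submitters' processing notes) were done by the authors, who deposited log2 values of 29214 probe sets. RMA equalizes the distributions of arrays and can compress large differences. Whether dim probe sets were filtered is not stated in the labels or the methods.

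Probe sets were named by the platform annotation (15310 with 1 symbol, 323 with several, 13581 with none), and the probe set with the highest mean was used for each of 14506 genes. A linear model with 4 group means over the 12 arrays (8 residual and 6.66 prior degrees of freedom) was fitted to all of them using limma (version 3.58.1, R version 4.3.3), with Benjamini-Hochberg adjustment over all genes and calls at an adjusted p under 0.05. SE and intervals come from this fit. The script was tested on simulated data. The number of arrays limits the precision.

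The genes and lists were chosen with earlier results of these data known. All measured members were named, with the targets called in AI against VEH or AI+E2 against AI, up to 4 called genes with the smallest p of each other list, up to 3 called markers per list, and the 3 genes most like each called member among genes whose group means differed by at least 0.5. Alternatives concerned the test, probe sets, scaling, weights, dim genes, a replicate block and each array left out. Same-numbered arrays did not deviate together (r from -0.49 to 0.34 over 18 pairs, 4 above 0.1), so the numbers do not pair the arrays. Promoter sequences are those of RefSeq (GRCr8). Figures were drawn with matplotlib.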

Additional observations from a re-analysis of the deposited data

How the results depend on the processing

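Each difference of a member was recomputed under 23 alternatives, 12 of which left out an array. Of 684 such values, 629 had the direction and call first reported, 25 lost a call, 10 gained one and 20, none of them called, changed sign. The number of members called was 1 in AI against VEH (0 to 1 with an array left out), 1 in AI+E2 against AI (1 to 1), 2 in AI+E2 against VEH (1 to 2), 2 in VEH against D12 (1 to 2), 2 in AI against D12 (1 to 2) and 1 in AI+E2 against D12 (1 to 2). With all probe sets in the adjustment, 1 was called in VEH against D12. With only the 2 groups compared, 0 were called in VEH against D12 and 1 in AI against D12. With the methods' t-test after Benjamini-Hochberg, 0 were called in AI against VEH, 1 in AI+E2 against VEH, 0 in VEH against D12 and 0 in AI against D12. At the methods' threshold without adjustment, that test called 1, 3, 1 and 2 members in these comparisons, 2 in AI+E2 against AI and 1 in AI+E2 against D12. Array weights, whose estimation stopped before it converged, called 3 in AI+E2 against AI, 4 in AI+E2 against VEH and 2 in AI+E2 against D12. They also called more genes of the other lists. In AI+E2 against AI, other nuclear receptor genes went from 6 to 20 of 36 and partner factors from 4 to 14 of 26. In AI+E2 against VEH, these went from 5 to 10 and from 4 to 8. The added calls of members are thus not particular to them. A repeated quantile normalization called 3 in VEH against D12 and 2 in AI+E2 against D12. The causes were not tested.

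With the replicate block, the members called were 1, 1, 2, 2, 2 and 1 in the order above, and it changed no call of a member, while genes called went from 2458 to 2226 in AI against VEH and the partner factors from 3 to 1 and the other GATA genes from 1 to 0 there. No array correlated best with those of its own number. Signs changed for Gata6 in AI against D12 with array weights (-0.0136) and for Gata4 in AI+E2 against AI after quantile normalization (-0.0075). With an array left out, Nr0b1 ranged from -0.10 to 0.093 in AI against VEH, from -0.050 to 0.15 in VEH against D12 and from -0.053 to 0.12 in AI against D12. Gata6 ranged from -0.039 to 0.27 in AI against VEH, from -0.072 to 0.24 in AI+E2 against VEH, from -0.26 to 0.047 in VEH against D12, from -0.037 to 0.065 in AI against D12 and from -0.070 to 0.032 in AI+E2 against D12. Gata4 ranged from -0.026 to 0.13 in AI+E2 against AI and from -0.0088 to 0.21 in AI against D12. Nr0b1 has no value with the dimmer 50% of genes left out. Of 552 counts of called list genes, 64 moved by over 1.5 times or went to or from 0. Among them were the targets in AI against VEH (9, and 2 with the methods' t-test).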
